A study of Mus musculus with 6 samples.

Results

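The genes described here are 31 genes of sterol synthesis, uptake and storage in mouse liver, from the sensors that switch the pathway on, through the mevalonate steps that build isoprenoid units and the sterol steps that turn squalene into cholesterol, to the proteins that take up, carry and esterify sterol. They were chosen by name, and all 31 were found among the 55401 genes of the deposited count table through their Ensembl identifiers. All 31 passed the filter on low counts, as did 17394 genes in total. Liver RNA came from C57BL/6 mice in 2 groups of 3 samples. Mice of the OP group received okra polysaccharide, long-chain carbohydrate obtained from okra, and the labels of its samples do not name their diet. The HFCF group received a diet rich in fat, cholesterol and fructose. The labels give no dose, duration, age or sex, and mice on ordinary chow are not among the samples. Whether the 3 libraries of a group stand for 3 animals is not labelled, so a p-value here speaks of the spread among libraries, part of which may be technical.

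Cells sense sterol in the membrane of the endoplasmic reticulum. When sterol is low, Scap escorts the transcription factor encoded by Srebf2 to the Golgi, where it is cleaved and freed to activate the genes of sterol synthesis, and when sterol is high, the Insig proteins hold Scap back. The liver both makes cholesterol and takes it up from lipoproteins, and a cholesterol-rich diet is known to lower the transcription of the synthesis genes.

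Total counts ranged from 50635853 to 61918541 in the OP libraries and from 46459980 to 58822973 in the HFCF libraries, so 3 counts stood for 0.0485 to 0.0646 CPM (counts scaled to a common library size). Counts of 4 were more frequent than counts of 3 or 5 in each library, so a read pair may be worth several counts and the counting depth is then lower than the totals. Mitochondrial mRNAs took 7.48%, 6.08% and 14.4% of the counts in the OP libraries and 22.0%, 18.8% and 14.1% in the HFCF libraries, so that share was lower in 2 of the OP libraries than in each HFCF library. The 5 hepatocyte markers were abundant in every library, and they differed in both directions. In edgeR, Ttr rose (log2 fold change 1.13, adjusted p = 0.019) and Cps1 fell (-1.43, adjusted p = 0.0274), while Alb (0.92, adjusted p = 0.158), Apoa1 (0.31, adjusted p = 0.358) and Tat (-1.5, adjusted p = 0.0766) did not pass. In bulk tissue, fewer cells of a type and less RNA per cell cannot be told apart.

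The comparison asked which steps of the pathway differed in OP livers relative to HFCF livers. Several enzymes of sterol synthesis were 2.81-fold to 4.23-fold higher in OP. They were Hmgcs1, Mvd and Fdps of the mevalonate steps and Sqle, Cyp51, Msmo1 and Nsdhl of the sterol steps. Stard4, a carrier of sterol between membranes, was 1.96-fold higher, and Rnf145, a ubiquitin ligase gene of the sterol-sensing machinery, fell to 0.5 of its HFCF level. Srebf2 itself was at 31.9 ± 4.94 CPM in OP and 28.2 ± 1.8 CPM in HFCF (SD, n = 3 each), and did not pass. Genes were called where the quasi-likelihood test of edgeR gave an adjusted p (Benjamini-Hochberg, over the 17394 genes) under 0.05, and by this rule 8 of the 31 genes rose, 1 fell and 22 did not pass. Of all tested genes, 3.26% were higher and 3.47% lower in OP, 6.73% in all. With DESeq2, 14 of the 31 genes were higher and 4 lower, against 7.7% higher and 7.41% lower among the genes it gave an adjusted p. With limma-voom, 9 were higher and 2 lower, against 3.71% and 3.87% of all tested genes. The 31 genes had a median log2 fold change of 0.58, against 0.02 for all tested genes. The 3 OP libraries lay above the 3 HFCF libraries for 15 genes and below them for 4, and the groups overlapped for 12. Over all tested genes, 15.8% lay above and 15.4% below.

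**Figure D1:**
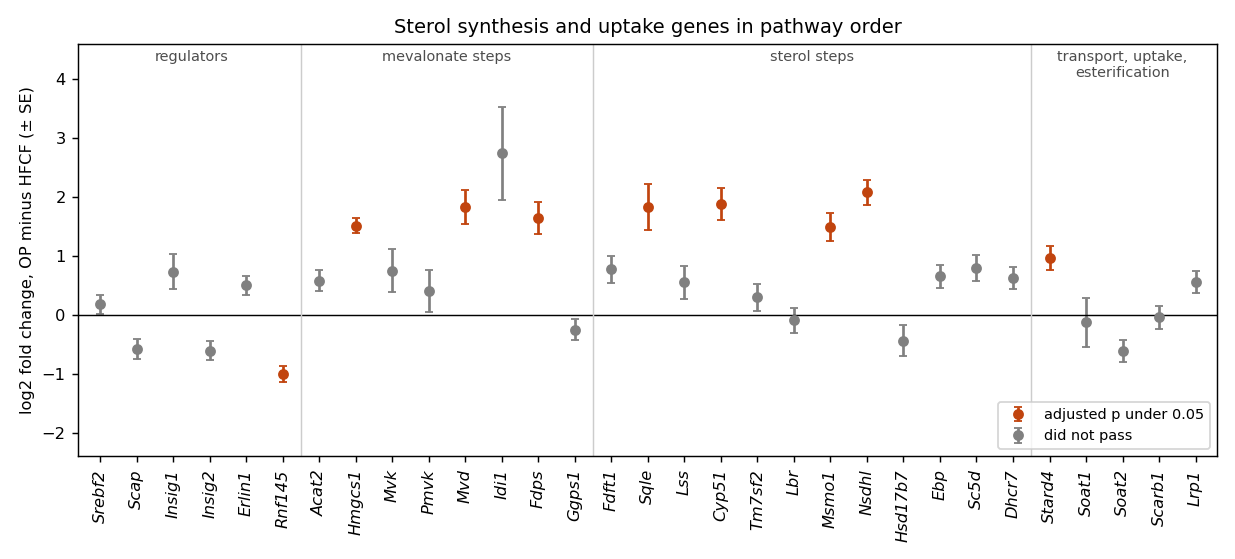
Log2 fold change of each of the 31 genes, OP minus HFCF, with its standard error, in pathway order from regulators to esterification. The 7 synthesis enzymes that passed stand between 1.49 and 2.08, and genes that did not pass lie between them, such as Lss (0.56), Tm7sf2 (0.30) and Lbr (-0.09).

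The promoter windows of the genes that rose are shown as a description, since the pathway's transcription factor binds in promoters. Whether it acted on these genes here was not tested. RefSeq windows (GRCm38.p6, 250 bases before to 50 after the start of the gene) were matched by symbol for 25 of the 31 genes, and 5 of the 8 genes that rose were among them. Fdps, Fdft1, Sqle, Stard4, Soat2 and Scarb1 had no entry in the table. Capitals mark the letters TCACNCCAC, a form of the sterol regulatory element, and CCAAT, the element of the factor NF-Y, each searched on both strands, and the matches of the 2 motifs share no letter.
Hmgcs1, chr13:119690101-119690400, plus strand: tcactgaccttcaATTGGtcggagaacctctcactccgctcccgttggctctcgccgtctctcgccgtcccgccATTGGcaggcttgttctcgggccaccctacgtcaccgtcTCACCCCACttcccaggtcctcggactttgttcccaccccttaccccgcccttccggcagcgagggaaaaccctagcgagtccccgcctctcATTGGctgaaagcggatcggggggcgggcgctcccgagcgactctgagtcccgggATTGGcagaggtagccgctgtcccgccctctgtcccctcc
Mvd, chr8:122443373-122443672, minus strand: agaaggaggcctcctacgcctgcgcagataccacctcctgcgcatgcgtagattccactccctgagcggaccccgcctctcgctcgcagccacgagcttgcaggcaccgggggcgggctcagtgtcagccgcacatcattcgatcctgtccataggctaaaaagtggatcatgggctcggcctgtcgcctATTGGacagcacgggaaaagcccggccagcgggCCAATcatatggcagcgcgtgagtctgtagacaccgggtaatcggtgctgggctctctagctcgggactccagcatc
Cyp51, chr5:4104648-4104947, minus strand: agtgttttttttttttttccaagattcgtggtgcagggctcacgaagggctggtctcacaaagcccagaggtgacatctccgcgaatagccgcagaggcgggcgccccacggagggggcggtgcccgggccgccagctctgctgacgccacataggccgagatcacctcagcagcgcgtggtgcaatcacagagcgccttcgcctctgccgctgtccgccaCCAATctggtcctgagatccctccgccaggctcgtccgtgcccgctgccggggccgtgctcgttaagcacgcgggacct
Msmo1, chr8:64733529-64733828, minus strand: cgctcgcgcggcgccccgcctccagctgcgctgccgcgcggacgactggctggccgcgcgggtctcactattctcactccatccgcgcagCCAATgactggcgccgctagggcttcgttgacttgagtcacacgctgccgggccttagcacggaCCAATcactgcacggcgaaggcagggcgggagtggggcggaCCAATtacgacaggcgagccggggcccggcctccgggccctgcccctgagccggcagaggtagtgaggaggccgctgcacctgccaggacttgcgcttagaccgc
Nsdhl, chrX:72918271-72918570, plus strand: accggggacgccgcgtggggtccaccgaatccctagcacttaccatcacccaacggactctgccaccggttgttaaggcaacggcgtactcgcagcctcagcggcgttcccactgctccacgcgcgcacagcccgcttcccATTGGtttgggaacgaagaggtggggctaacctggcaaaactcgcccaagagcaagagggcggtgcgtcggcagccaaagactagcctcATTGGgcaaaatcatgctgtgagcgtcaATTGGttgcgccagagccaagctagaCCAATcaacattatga
TCACNCCAC was found in 1 of the 25 genes, Hmgcs1, as TCACCCCAC starting 137 bases before the gene's start. A match was present in 1.44% of all genes with a window. Other forms of the element were not searched, so a window without a match may still hold one. CCAAT was found in 21 of the 25 genes (84.0%), against 41.1% of all genes in the table, where a short motif is often met by letters alone. It was present in all 5 of the genes above, with 4 matches in Hmgcs1, 4 in Nsdhl, 3 in Msmo1, 2 in Mvd and 1 in Cyp51. Of the 10 sterol step genes with a window, all 10 had it, whether they rose or did not pass. A match is a description of the letters and not a site of binding, and genes with several start sites count once if any window matched.

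Among the regulators, Rnf145 was the gene that passed. It encodes a ubiquitin ligase of the endoplasmic reticulum that acts on Scap. Rnf145 had 12.4, 12.5 and 15.2 CPM in the OP libraries, against 27.6, 25.7 and 26.8 CPM in the HFCF libraries. Every OP library was well below every HFCF library. The log2 fold change was -1.0 ± 0.143 (SE), with an edgeR adjusted p of 0.00955, and the call was lost without OP replicate 1, HFCF replicate 1 or HFCF replicate 2, although the fold change stayed between -1.10 and -0.95 over the 6 libraries left out in turn.

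The other regulators did not pass in edgeR, and they lay on both sides of 0. DESeq2 called Scap and Insig2 lower (adjusted p = 0.019 and 0.00889), and limma-voom called Insig2 lower (adjusted p = 0.0454). Insig2, which anchors Scap in the endoplasmic reticulum, had 74.2, 69.0 and 55.4 CPM in OP and 92.4, 98.7 and 110.7 CPM in HFCF. The OP libraries were all below the HFCF libraries, with a log2 fold change of -0.60 ± 0.157 (SE) and an edgeR adjusted p of 0.0572. Insig1, the Insig gene that is itself a known target of the pathway's transcription factor, had 103.8, 78.2 and 47.9 CPM in OP and 33.6, 43.9 and 60.4 CPM in HFCF. Here the groups overlapped, since OP replicate 3 was below HFCF replicate 3 (log2 fold change 0.74 ± 0.303, edgeR adjusted p = 0.175). Scap, the escort protein gene, had 69.9, 84.9 and 79.0 CPM in OP and 137.3, 117.2 and 93.9 CPM in HFCF. Its OP libraries lay below its HFCF libraries without passing (log2 fold change -0.58 ± 0.171, edgeR adjusted p = 0.0797). Erlin1, a membrane protein of the endoplasmic reticulum that takes part in protein degradation there, was at 25.3 ± 3.27 CPM in OP and 17.8 ± 2.51 CPM in HFCF, with an edgeR adjusted p of 0.0971.

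The balance of the 2 Insig genes was also taken as a ratio of counts within each library, which does not depend on how libraries are scaled. The ratio of Insig1 to Insig2 was 1.40, 1.13 and 0.864 in the OP libraries and 0.364, 0.444 and 0.546 in the HFCF libraries. The groups did not overlap, although Insig1 alone did. The mean log2 ratio was 0.15 ± 0.349 in OP and -1.17 ± 0.293 in HFCF, a difference of 1.32 (n = 3 each; two-sided exact permutation test, p = 0.1, which is the smallest that 3 against 3 can give; adjusted p = 0.2 over the 4 ratios tested).

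**Figure D2:**
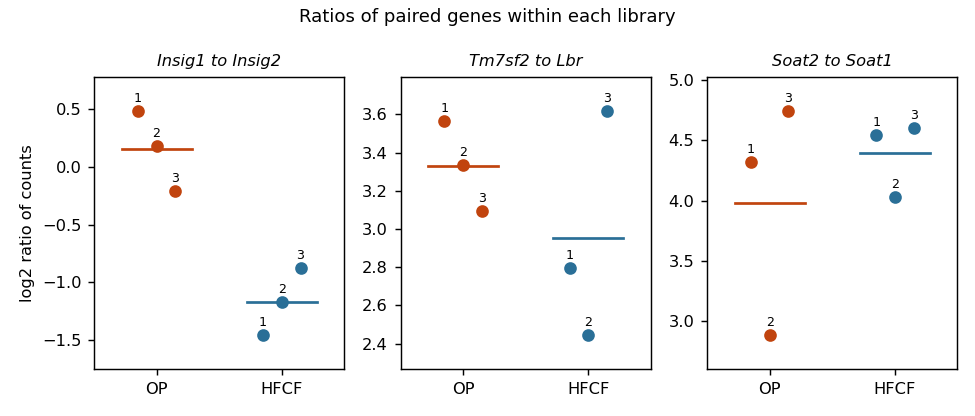
Log2 ratio of the counts of 2 genes in each library, with replicate numbers, OP left and HFCF right in each panel; horizontal lines are group means. The OP libraries stand above the HFCF libraries for Insig1 to Insig2, and the groups overlap for Tm7sf2 to Lbr and for Soat2 to Soat1.

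In the mevalonate steps, 3 of 8 genes rose and 5 did not pass, with a median log2 fold change of 1.14. DESeq2 also called Acat2 higher (adjusted p = 0.0262). Hmgcs1, the cytosolic HMG-CoA synthase, had 149.0, 134.4 and 147.8 CPM in OP, against 46.9, 52.7 and 51.1 CPM in HFCF. Libraries within a group were close to each other, and the groups stood far apart. The log2 fold change of Hmgcs1 was 1.52 ± 0.131 (SE; edgeR adjusted p = 0.00229), and the call held without any single library, between 1.47 and 1.56 on the log2 scale. Mvd, the mevalonate diphosphate decarboxylase, had 15.8, 9.78 and 8.01 CPM in OP and 2.74, 3.78 and 2.94 CPM in HFCF. OP replicate 1 was the highest for Mvd, and the lowest OP library was still above all HFCF libraries (log2 fold change 1.83 ± 0.286, edgeR adjusted p = 0.0125). Fdps, the farnesyl diphosphate synthase, had 97.3, 76.3 and 43.3 CPM in OP and 22.8, 23.1 and 23.3 CPM in HFCF. The HFCF libraries of Fdps were nearly alike, while the OP libraries differed by more than the lowest of them differed from HFCF (log2 fold change 1.65 ± 0.267, edgeR adjusted p = 0.0136). Mvd lost its call without HFCF replicate 1 or HFCF replicate 2, and Fdps without these or OP replicate 1.

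Idi1, the isomerase that supplies the reactive isoprene unit, had the largest fitted difference of the 31 genes and did not pass. It had 40.1, 39.9 and 18.7 CPM in OP and 6.51, 0.416 and 7.73 CPM in HFCF. The OP libraries lay above the HFCF libraries, and HFCF replicate 2 was far below the other two, with 20 counts against 314 and 468. The log2 fold change was 2.75 ± 0.791 (SE; edgeR adjusted p = 0.0741). Without HFCF replicate 2 it was 2.17 (edgeR adjusted p = 0.0658). Idi1 passed with limma-voom (adjusted p = 0.0414) and with the counts divided by 4 (edgeR adjusted p = 0.0329).

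The other mevalonate genes differed less. Acat2, the cytosolic acetoacetyl-CoA thiolase, had 62.3, 72.5 and 48.7 CPM in OP and 36.9, 43.0 and 42.4 CPM in HFCF. The groups did not overlap, but the gene did not pass (log2 fold change 0.58 ± 0.173, edgeR adjusted p = 0.0783). Acat3, a close copy of Acat2, was at 260 ± 30.7 CPM in OP and 215 ± 10.6 CPM in HFCF, and the split of reads between the copies is uncertain. Summed, the pair had a log2 fold change of 0.33 (edgeR adjusted p = 0.195). The kinases Mvk and Pmvk had log2 fold changes of 0.76 ± 0.360 and 0.41 ± 0.363, with overlapping groups. For Ggps1, which makes the geranylgeranyl diphosphate used to anchor proteins, it was -0.25 ± 0.179 (edgeR adjusted p = 0.439). Ggps1 shares exon bases on the opposite strand with Arid4b, which had 22.5 ± 2.88 CPM in OP and 31.9 ± 2.84 CPM in HFCF. The share of Arid4b reads in Ggps1 was not tested.

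**Figure D3:**
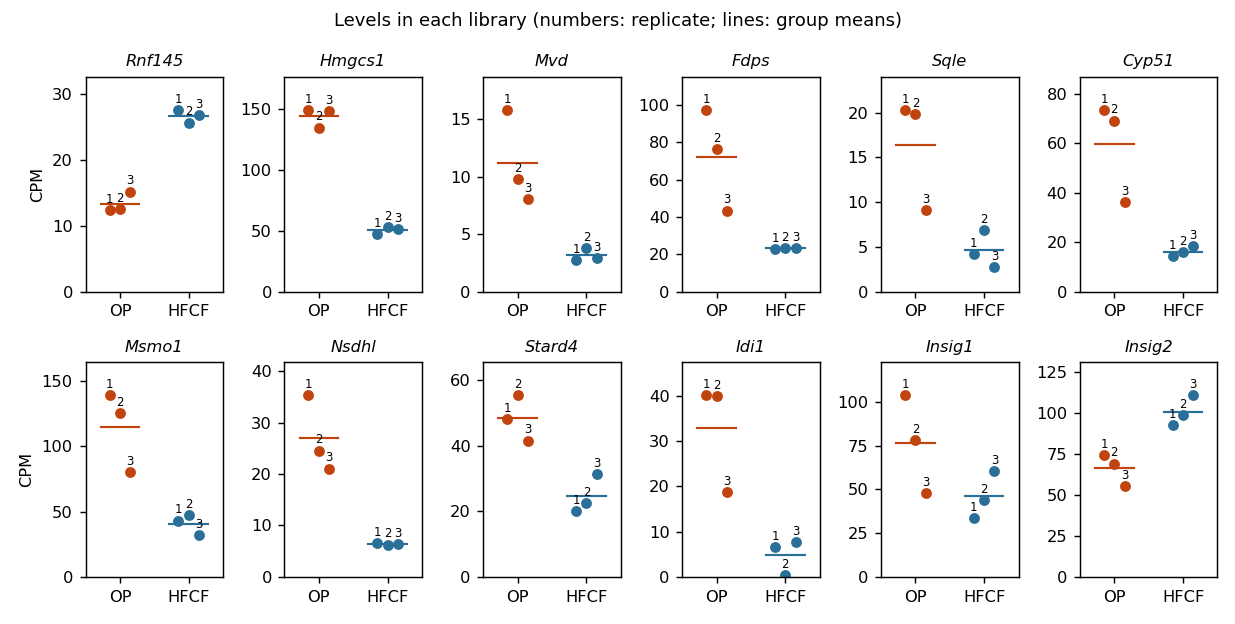
Level of the 9 genes that passed and of Idi1, Insig1 and Insig2 in each library, in CPM on axes that start at 0, with replicate numbers and group means as lines, OP left and HFCF right. OP replicate 3 is the lowest OP library for Mvd, Fdps, Sqle, Cyp51, Msmo1, Nsdhl, Stard4, Idi1, Insig1 and Insig2, and Hmgcs1 stands at 134.4 to 149.0 CPM in all 3 OP libraries.

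In the sterol steps, 4 of 12 genes rose and 8 did not pass, with a median log2 fold change of 0.72. DESeq2 also called Fdft1, Ebp, Sc5d and Dhcr7 higher. The genes that rose were Sqle at the entry from squalene and Cyp51, Msmo1 and Nsdhl, which take part in removing methyl groups from lanosterol. Sqle, the squalene epoxidase and a known control point, had 20.3, 19.8 and 9.08 CPM in OP and 4.17, 6.90 and 2.76 CPM in HFCF. The groups were apart, but the libraries of each group spread by more than 2-fold (log2 fold change 1.83 ± 0.398, edgeR adjusted p = 0.0341), and the call remained only when OP replicate 3 was the library left out. Cyp51, the lanosterol demethylase, had 73.5, 69.1 and 36.1 CPM in OP and 14.3, 15.8 and 18.3 CPM in HFCF. Its lowest OP library was above its highest HFCF library by 1.98-fold (log2 fold change 1.88 ± 0.265, edgeR adjusted p = 0.0094). It lost its call without HFCF replicate 1 or HFCF replicate 2.

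Msmo1, the methyl sterol oxidase that acts after Cyp51, had 139.0, 125.2 and 80.1 CPM in OP and 43.1, 47.1 and 32.2 CPM in HFCF. The order of the OP libraries was that of Fdps and Cyp51, with replicate 1 the highest and replicate 3 the lowest (log2 fold change 1.49 ± 0.236, edgeR adjusted p = 0.0127), and the call was lost without OP replicate 1, HFCF replicate 1 or HFCF replicate 2. Nsdhl, the dehydrogenase of the same demethylation, had 35.3, 24.5 and 21.1 CPM in OP and 6.53, 6.28 and 6.32 CPM in HFCF. It was the gene with the largest fold change among those that passed, 2.08 ± 0.208 on the log2 scale (edgeR adjusted p = 0.00303), and it too was called without any single library. Hsd17b7, the reductase that completes a round of this demethylation after Nsdhl, was at 18.1 ± 5.44 CPM in OP and 24.4 ± 5.59 CPM in HFCF, below 0 on the log2 scale (-0.43 ± 0.258) and without passing.

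The remaining sterol genes lay nearer to 0. Sc5d, a desaturase of the late steps, had 247.9, 270.0 and 175.4 CPM in OP and 108.8, 119.7 and 168.1 CPM in HFCF. The groups were separate by a small margin between replicate 3 of each (log2 fold change 0.81 ± 0.222, edgeR adjusted p = 0.0658). Fdft1, the squalene synthase, had 100.7, 108.0 and 59.2 CPM in OP and 47.5, 48.9 and 60.0 CPM in HFCF, so the groups overlapped through replicate 3 (edgeR adjusted p = 0.0798). Fdft1 shares exon bases on the opposite strand with Ctsb, which rose to 445 ± 63.1 CPM in OP, against 260 ± 48.2 CPM in HFCF. How the counting used strand is not stated, so the share of Ctsb reads in Fdft1 was not tested. Cyp51 likewise shares exon bases with Akap9 on the opposite strand, and Akap9 had 31.3 ± 7.56 CPM in OP and 57.7 ± 14.8 CPM in HFCF, the opposite direction. Ebp, an isomerase of the late steps, and Dhcr7, the reductase that can make cholesterol last, had log2 fold changes of 0.66 ± 0.200 and 0.63 ± 0.188 with groups that did not overlap, and Lss, the lanosterol synthase, 0.56 ± 0.281 with overlap. None of these passed in edgeR.

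Tm7sf2 and Lbr encode reductases of the same sterol double bond. Tm7sf2 had 85.0, 95.0 and 57.2 CPM in OP and 59.2, 53.5 and 79.7 CPM in HFCF. Lbr, which also anchors chromatin at the nuclear envelope, had 7.18, 9.40 and 6.70 CPM in OP and 8.52, 9.83 and 6.49 CPM in HFCF. Groups overlapped for both genes, and so did the ratio between them, with a mean log2 ratio of 3.33 ± 0.235 in OP and 2.95 ± 0.603 in HFCF (n = 3 each; two-sided exact permutation test, p = 0.4; adjusted p = 0.533 over the 4 ratios). Exons of Tm7sf2 and Vps51 overlap on 1 strand, and the sum of both had a log2 fold change of 0.19 (edgeR adjusted p = 0.571), against 0.30 for Tm7sf2 alone.

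Of the genes for transport, uptake and esterification, 1 of 5 rose and 4 did not pass in edgeR. DESeq2 also called Soat2 lower (adjusted p = 0.0243) and Lrp1 higher (adjusted p = 0.0291). Stard4, which moves sterol between membranes and is regulated with the synthesis genes, had 48.1, 55.4 and 41.6 CPM in OP and 20.03, 22.5 and 31.4 CPM in HFCF. The OP libraries were above the HFCF libraries, with a log2 fold change of 0.97 ± 0.199 (SE; edgeR adjusted p = 0.0285), and the call was lost without OP replicate 1, OP replicate 2, HFCF replicate 1 or HFCF replicate 2. Soat2, the hepatocyte enzyme that esterifies cholesterol for storage and lipoproteins, had 40.2, 35.3 and 52.5 CPM in OP and 72.7, 68.5 and 54.1 CPM in HFCF. The OP libraries lay below, with replicate 3 of both groups nearly equal (log2 fold change -0.61 ± 0.190, edgeR adjusted p = 0.0894). Soat1, the form of most other cells, was low, with 2.02, 4.78 and 1.96 CPM in OP and 3.11, 4.2 and 2.23 CPM in HFCF, and overlapped. The mean log2 ratio of Soat2 to Soat1 was 3.98 ± 0.974 in OP and 4.39 ± 0.317 in HFCF (n = 3 each; two-sided exact permutation test, p = 0.7; adjusted p = 0.7 over the 4 ratios). Lrp1, a receptor for lipoprotein remnants, had 572, 482 and 762 CPM in OP and 411, 392 and 424 CPM in HFCF. The groups were apart, with OP replicate 3 the highest, and the gene did not pass (log2 fold change 0.57 ± 0.186, edgeR adjusted p = 0.102). Scarb1, the receptor for high density lipoprotein, was at 86.8 ± 22.2 CPM in OP and 89.2 ± 5.86 CPM in HFCF.

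Levels of different genes were compared per kilobase of exon, as CPM per kb, with all annotated exons of a gene merged. Ebp had the highest mean level of the 31 genes in both groups, 70.5 CPM per kb in OP and 44.7 in HFCF, and Soat1 the lowest, 0.298 and 0.325. Hmgcs1 stood at rank 4 in OP with 31.3 CPM per kb and at rank 11 in HFCF with 10.9. In HFCF the synthesis steps with the lowest mean level per length were Sqle (0.831 CPM per kb), Idi1 (1.39), Lss (1.64) and Mvd (1.70). In OP they were Lbr (1.63), Ggps1 (2.06), Lss (2.41) and Sqle (2.96). Mvk (2.97 CPM per kb) was nearly equal to Sqle in OP, so the place of Sqle among the 4 lowest is not firm there. The low place of Lss rests on its merged exon length of 10787 bases, against 2675 for Mvk. Before division by length, Lss had 17.7 CPM in HFCF and Mvk 4.71 CPM. The level of Sqle itself was 3.56-fold higher in OP than in HFCF.

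**Figure D4:**
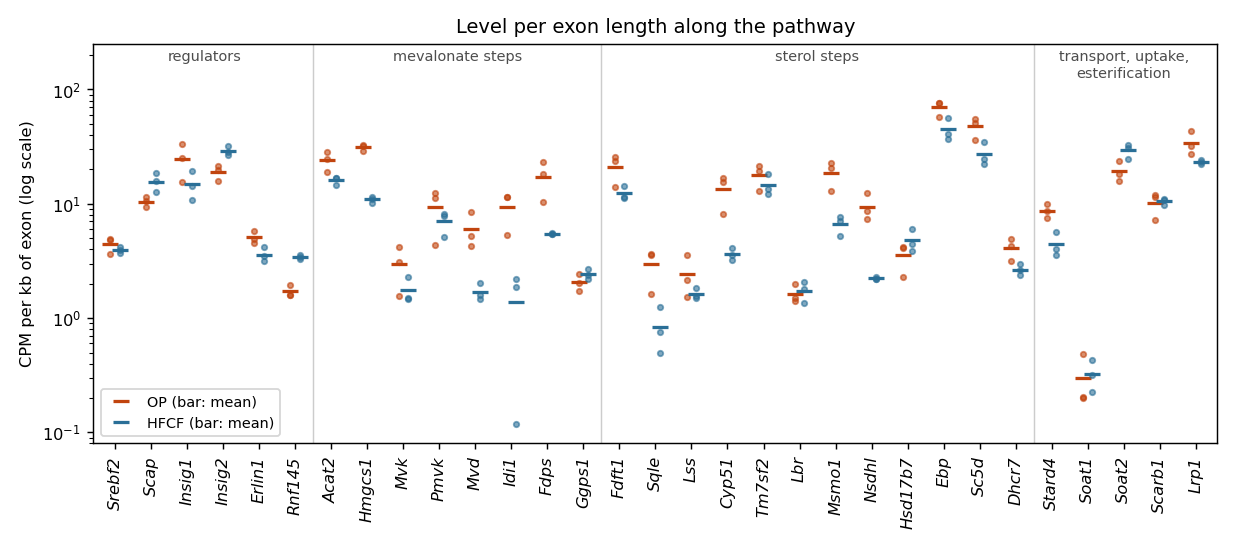
Level of each of the 31 genes per kilobase of exon, on a log axis, with points for the libraries and bars for the means, OP left of HFCF within each gene. Levels within the pathway span from 0.298 (Soat1) to 70.5 CPM per kb (Ebp) in OP and from 0.325 to 44.7 CPM per kb in HFCF.

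The 3 OP libraries were not alike in these genes. Over the 20 mevalonate and sterol steps together, the summed level was 1378, 1339 and 915 CPM in OP and 585, 605 and 718 CPM in HFCF. The groups did not overlap, and replicate 3 was the lowest of OP and replicate 3 the highest of HFCF. OP replicate 3 was the lowest OP library for 18 of these 20 genes, while it was the lowest for 38.9% of all tested genes. The exceptions were Hmgcs1 and Ggps1. Against the mean of the HFCF libraries, the median log2 difference of the 20 steps was 0.93 in OP replicate 1, 1.04 in OP replicate 2 and 0.31 in OP replicate 3. Over all tested genes these medians were -0.02, -0.001 and -0.02.

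**Figure D5:**
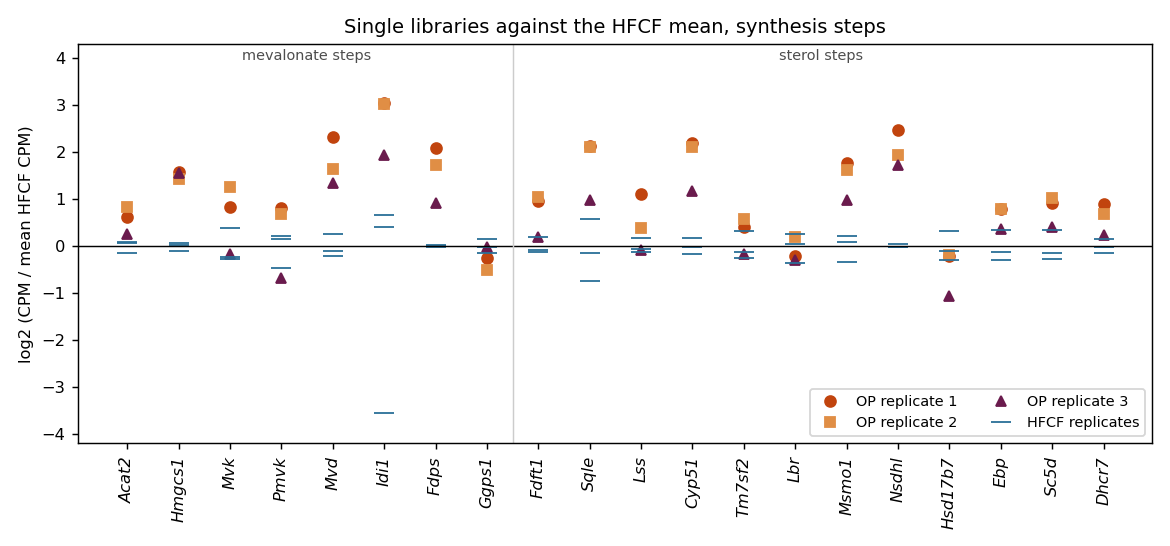
Log2 of the level in each library over the mean of the 3 HFCF libraries, for the 20 mevalonate and sterol steps in pathway order; symbols are the OP libraries and dashes the HFCF libraries. OP replicate 3 is the lowest OP library for 18 of the 20 genes, and the lowest dash is Idi1 in HFCF replicate 2.

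The mitochondrial mRNA share went the other way in replicate 3 of both groups. Among the OP libraries it was highest in replicate 3, where the summed level was lowest. Among the HFCF libraries it was lowest in replicate 3, where the summed level was highest. With that share as a covariate, 1 of the 31 genes was called, Hmgcs1 (log2 fold change 1.52, edgeR adjusted p = 0.02). The log2 fold change of Nsdhl was then 1.81 (edgeR adjusted p = 0.0523), that of Cyp51 1.03 (0.114) and that of Fdps 0.97 (0.251). Share and group largely go together, so they cannot be told apart in such a fit. OP replicate 3 and HFCF replicate 3 had the closest shares of any pair across groups, 14.4% and 14.1%, and were set side by side without a test, a choice made after the values were seen. Between these 2 libraries Nsdhl was 3.33-fold, Sqle 3.29-fold, Hmgcs1 2.89-fold, Mvd 2.73-fold, Msmo1 2.49-fold and Idi1 2.42-fold higher in OP, and those were the 6 of 20 synthesis steps with a log2 difference over 1. Of all tested genes, 8.04% were past that limit, computed with 0.1 CPM added to each value. Cyp51 (1.98-fold) and Fdps (1.86-fold) came next, and 11 of the 20 steps (55.0%) differed by less than 0.5 on the log2 scale, against 56.7% of all tested genes, among them Sc5d (0.06), Ebp (0.03), Fdft1 (-0.02) and Lss (-0.03). Hsd17b7 had 11.8 CPM in OP replicate 3 and 30.7 CPM in HFCF replicate 3, a log2 difference of -1.38.

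Summed levels of adipocyte and red cell markers also differed between the groups. The 5 adipocyte markers summed to 12.4 to 65.0 CPM in OP and 0 to 4.66 CPM in HFCF, with Adipoq, Plin1 and Lep at 0 in OP replicate 1, HFCF replicate 1 and HFCF replicate 2. Most of the sum was Cfd, with 12.2, 26.5 and 63.01 CPM in OP and 0, 0.104 and 3.32 CPM in HFCF. Of the 3 adipocyte markers that passed the filter on low counts, edgeR called none (Cfd adjusted p = 0.0626). The 5 red cell markers summed to 192 to 414 CPM in OP and 941 to 1767 CPM in HFCF, and 4 of them fell. Alas2 went the other way without passing, with 63.1 ± 6.07 CPM in OP and 50.3 ± 3.06 CPM in HFCF (edgeR adjusted p = 0.178). The part of the adipocyte and red cell markers in the results was not tested. Marker sums overlapped between the groups for Kupffer cells and macrophages, stellate cells, endothelium, cholangiocytes and lymphocytes, and edgeR called none of their genes.

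Genes around the pathway were read from lists chosen with earlier results of these data known. For comparison, edgeR called 3.26% of all tested genes higher and 3.47% lower. Of 13 genes of sterol sensing and protein degradation, 1 rose and 12 did not pass. The gene was Syvn1, a ubiquitin ligase of the endoplasmic reticulum, with 175, 68.1 and 114 CPM in OP and 51.2, 45.5 and 44.4 CPM in HFCF. The OP libraries were widely spread, and the call (log2 fold change 1.34 ± 0.301, edgeR adjusted p = 0.0376) was kept when OP replicate 2 was left out and lost without each of the other 5 libraries. Ufd1, which helps to extract proteins from the membrane, had a log2 fold change of -0.40 ± 0.126 (edgeR adjusted p = 0.0944).

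Of 7 genes of acetyl-CoA supply and HMG-CoA side reactions, 1 rose and 6 did not pass. Aacs, the acetoacetyl-CoA synthetase that feeds ketone bodies into the cytosolic pathway, had 38.0, 19.6 and 134 CPM in OP and 4.13, 6.69 and 7.00 CPM in HFCF. All OP libraries were above HFCF, and OP replicate 3, the low library for most synthesis steps, was the highest for Aacs. The log2 fold change was 3.43 ± 0.660 (edgeR adjusted p = 0.0235), 2.28 without OP replicate 3, and the call was lost without OP replicate 1 or any HFCF replicate. Acat1, the mitochondrial acetoacetyl-CoA thiolase, had a log2 fold change of 0.60 ± 0.206 (edgeR adjusted p = 0.113), and was called higher by DESeq2.

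Of 13 genes of the isoprenoid branches, which use farnesyl and geranylgeranyl units for protein anchors, dolichol and ubiquinone, none passed in edgeR, DESeq2 or limma-voom, and 0 of 13 had an unadjusted p under 0.05 with any of the 3 tools, against 25.2% of all tested genes in edgeR. The log2 fold changes ran from -0.36 to 0.54, with Pdss2 of the ubiquinone branch at the upper end. Of 10 genes of lysosomal and membrane transfer of sterol, 1 fell and 9 did not pass. Npc1, which exports cholesterol from lysosomes, had 88.6, 87.3 and 61.5 CPM in OP and 138, 147 and 131 CPM in HFCF. The OP libraries were all below (log2 fold change -0.81 ± 0.171, edgeR adjusted p = 0.0313), and the call was kept only when OP replicate 3 or HFCF replicate 3 was left out. Lipa, the lysosomal acid lipase, had a log2 fold change of 0.56 ± 0.188 (edgeR adjusted p = 0.11), and was called higher by DESeq2. None of 10 lipoprotein receptor and adaptor genes passed in edgeR or limma-voom, 4 of them with an unadjusted p under 0.05, and DESeq2 called 1 of them, Pdzk1. This adaptor of Scarb1 had a log2 fold change of 0.69 ± 0.189 (edgeR adjusted p = 0.0642). None of 3 genes of ester hydrolysis and plasma esterification passed in edgeR or limma-voom. Lcat, which esterifies cholesterol in plasma, was the 1 gene with an unadjusted p under 0.05 and the 1 that DESeq2 called, with a log2 fold change of 0.55 ± 0.171 (edgeR adjusted p = 0.0914).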

How the data were processed

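Total RNA of fresh liver was enriched for polyadenylated RNA and made into stranded (dUTP) libraries for paired-end sequencing, per the labels' protocols. Cutadapt 1.9, FastQC and the build GRCm39 are named in the submitters' processing notes; which aligner and counter were run, and whether counting used strand, is not stated there. The authors deposited raw counts per gene, with 1 column for each of the 6 libraries.

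Samples were grouped by their titles. Symbols were matched for 55141 of 55401 Ensembl identifiers. Genes kept by filterByExpr (17394 of 27893 with any count) were scaled by TMM and tested two-sided, OP minus HFCF, with edgeR 4.0.16 (glmQLFit, glmQLFTest; R 4.3.3) and Benjamini-Hochberg adjustment over all tested genes, with a threshold of 0.05; the standard error is the log2 fold change over the square root of F. Ratios of paired genes were tested by exact permutation (scipy 1.17.1), with adjustment over 4 ratios, and some results, 1 of these ratios among them, are not reported here. Exon lengths and exon overlaps came from GENCODE M21, and promoter sequences from RefSeq; both are on an older build than the counts, and the overlaps and lengths were used without coordinates. The test was tried on simulated counts. The 3 counts of the detection floor cover counting error only. No pair of replicates agreed within sampling noise (chi-square per degree of freedom 46.2 to 350).

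The members, lists and tests were chosen with earlier results of these data known. Values in every library are given for each member that passed, for the 2 other members of each stage with the smallest p and for the paired genes; from the comparison lists, each gene that passed is named, with at most 2 others of smallest p. Alternatives were DESeq2 1.42.0, limma-voom (limma 3.58.1), RLE or no scaling factors, no filter on low counts or one of 1 CPM (in at least 3 libraries), replicate numbers as a block, mitochondrial genes left out or their share as a covariate, each library left out, and thresholds of 0.01 and 0.1. Counts divided by 4 and the pair of libraries with the closest mitochondrial share were added after seeing the data.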

Additional observations from a re-analysis of the deposited data

How the results depend on the processing

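All 31 genes kept their direction with RLE scaling, no scaling factors, mitochondrial genes left out, either filter, DESeq2, limma-voom, the replicate block and counts divided by 4. Fdps, Tm7sf2 and Acat2 also kept theirs when summed with an overlapping or copied gene. Against 8 higher and 1 lower among the 31 genes, and 567 higher and 603 lower among all, DESeq2 called 14, 4, 1180 and 1135 in that order. No filter on low counts left 298 and 400 calls among all genes and the same 8 and 1 genes. Limma-voom, the filter of 1 CPM and counts divided by 4 each called 2 of the 31 genes lower. Among all genes they called 674, 815 and 824 lower, in the same order. Adjusted for the mitochondrial share, the counts were 1, 0, 110 and 97. The threshold of 0.01 gave 3 of the 31 genes higher and 72 and 92 calls among all genes, and that of 0.1 gave 15, 4, 1322 and 1230. Over the 6 libraries left out in turn, 2 to 12 of the 31 genes were called higher and 0 to 2 lower, with 34 to 655 higher and 54 to 655 lower among all genes; the lowest counts came without HFCF replicate 2 (2 of the 31 higher, as without HFCF replicate 1), and without OP replicate 1 there were 4. Hmgcs1 and Nsdhl were called in each of these 6 fits.

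With the replicate block, 4 of the 31 genes were called higher (Hmgcs1, Sqle, Msmo1 and Nsdhl) and 0 lower, with 87 and 93 calls among all genes. There was no sign that the numbers pair the samples, though 3 libraries per group cannot exclude it. Deviations from the group means correlated at 0.0229, -0.126 and -0.164 for the replicates numbered 1, 2 and 3, and not every sample correlated best with its own number.

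The sign reversed with the mitochondrial covariate for Srebf2 (-0.043), Insig1 (-0.26), Mvk (-0.19), Pmvk (-0.20), Ggps1 (0.079) and Tm7sf2 (-0.38), none of them called; the cause was not tested. It also reversed for Soat1 without OP replicate 1 (0.09), OP replicate 3 (0.10) or HFCF replicate 2 (0.10), for Lbr without OP replicate 3 (0.0036) or HFCF replicate 2 (0.018), and for Scarb1 without OP replicate 3 (0.16). Over the libraries left out, the lowest log2 fold changes were -0.67 for Soat1, -0.25 for Lbr and -0.17 for Scarb1. The log2 ratio of Insig1 to Insig2 differed by 1.15 to 1.5 over the libraries left out, while that of Soat2 to Soat1 ran from -0.79 to 0.14, with the highest value without OP replicate 2.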
